A study of Homo sapiens with 6 samples.

Results

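Peroxiredoxins, catalase and superoxide dismutases are the enzymes that remove superoxide and hydrogen peroxide, and the 9 human genes described here are PRDX1 to PRDX6, CAT, SOD1 and SOD2. They were taken by gene symbol from the GENCODE v44 annotation, by a rule that uses no measured value, and are 9 of the 62252 genes to which the quantified transcripts were assigned. All 9 passed the filter on low counts (a total above 10 over the 6 libraries), as did 26074 genes in all. Polyadenylated RNA was sequenced from K562, an established human chronic myeloid leukaemia cell line with erythroid features, after overnight treatment with 10 µM of the iron chelator 21H7 (the Chelator group) or with DMSO, the solvent, in matched volume (the DMSO group). Each group had 3 libraries, with 78615500 to 90383641 estimated counts per DMSO library and 85449857 to 101094957 per Chelator library. The labels give no separate cultures or days for the libraries, so p-values measure the spread between these libraries, which may be technical. In bulk RNA, fewer cells that express a gene and less RNA per cell cannot be told apart.

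Superoxide dismutases convert superoxide to hydrogen peroxide, with copper and zinc in SOD1, the enzyme of the cytosol, and with manganese in SOD2, the enzyme of the mitochondrial matrix. Catalase is a haem enzyme of peroxisomes that breaks hydrogen peroxide down to water and oxygen, so its activity needs iron, whereas peroxiredoxins reduce peroxides with a cysteine and hold no metal. PRDX1 and PRDX2 act mainly in the cytosol, PRDX3 in mitochondria, PRDX4 in the secretory pathway, PRDX5 in mitochondria, peroxisomes and cytosol, and PRDX6 in the cytosol with glutathione rather than thioredoxin as its usual reductant; red cells and their precursors are rich in PRDX2, catalase and SOD1.

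The 6 peroxiredoxins share the cysteine that attacks the peroxide, and the 36 coding bases around it are shown because they are the stretch by which the family is defined and because they show how far the 6 mRNAs differ in letters. Each window was read 5′ to 3′ in GENCODE v44 (GRCh38) from the coding strand of the transcript with the highest TPM of its gene (TPM is a level scaled by transcript length and library size), and the capitals mark the codon of that cysteine.
PRDX1: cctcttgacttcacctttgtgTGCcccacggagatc
PRDX2: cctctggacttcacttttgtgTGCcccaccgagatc
PRDX3: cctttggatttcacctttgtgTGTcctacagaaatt
PRDX4: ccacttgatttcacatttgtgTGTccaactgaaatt
PRDX5: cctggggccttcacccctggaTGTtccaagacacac
PRDX6: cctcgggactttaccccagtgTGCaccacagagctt
In PRDX5 the codon lies at chr11:64319860-64319862 (plus strand) and in PRDX6 at chr1:173481369-173481371 (plus strand). The codon is number 52 in PRDX1, 51 in PRDX2, 108 in PRDX3, 124 in PRDX4, 100 in PRDX5 and 47 in PRDX6, counted from the start codon. PRDX1 and PRDX2 were the closest pair over the whole coding sequence, with 72.6% identical bases, and PRDX3 and PRDX5 the most distant, with 59.7%. The longest run of bases shared by the full transcripts with the highest TPM of any 2 peroxiredoxins was 17 (PRDX1 and PRDX4), far shorter than a read. Sequence shared with other genes was small: 9.18% of the 31-base words of PRDX1-202 also occur in PRDX1P1, 6.30% of those of PRDX3-201 in PRDX3P1 and 1.16% of those of SOD1-201 in SOD1P3, 3 pseudogenes with means of 7.7, 13.7 and 360.3 estimated counts per library. SOD2-203 shares 3.96% of its words with FAM177B (mean of 2.2 counts), and the main transcripts of the other 5 genes share none.

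Promoter sequence is shown for PRDX5, the gene with the largest rise, for PRDX4, the gene with the largest fall, and for PRDX2 and CAT, which are abundant in erythroid cells and moved in opposite directions. Each is the 250 bases before the annotated start from RefSeq (GRCh38.p14), read 5′ to 3′ on the strand of the gene. Capitals mark matches on either strand to 3 motifs: TGANNNNGC, the core of the antioxidant response element; ACGTG, the core of the hypoxia response element; and GGGCGG, the GC box.
PRDX5 (chr11:64317871-64318120, plus strand): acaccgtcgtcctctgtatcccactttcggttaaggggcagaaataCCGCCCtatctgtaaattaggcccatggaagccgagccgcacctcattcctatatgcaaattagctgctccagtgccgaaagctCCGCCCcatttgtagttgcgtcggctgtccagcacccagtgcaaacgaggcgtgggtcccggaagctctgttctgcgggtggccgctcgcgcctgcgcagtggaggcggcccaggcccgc
PRDX2 (chr19:12801801-12802050, minus strand): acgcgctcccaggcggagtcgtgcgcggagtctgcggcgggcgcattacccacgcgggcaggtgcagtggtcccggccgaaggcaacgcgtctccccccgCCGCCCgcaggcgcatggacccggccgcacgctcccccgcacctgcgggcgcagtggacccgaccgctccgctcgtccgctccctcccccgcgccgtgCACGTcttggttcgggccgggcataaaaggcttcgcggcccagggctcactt
PRDX4 (chrX:23667243-23667492, plus strand): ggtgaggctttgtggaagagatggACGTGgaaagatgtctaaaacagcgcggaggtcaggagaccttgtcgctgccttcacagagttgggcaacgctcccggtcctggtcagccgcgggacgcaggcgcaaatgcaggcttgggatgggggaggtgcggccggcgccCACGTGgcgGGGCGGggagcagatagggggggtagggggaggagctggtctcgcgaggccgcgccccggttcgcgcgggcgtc
CAT (chr11:34438684-34438933, plus strand): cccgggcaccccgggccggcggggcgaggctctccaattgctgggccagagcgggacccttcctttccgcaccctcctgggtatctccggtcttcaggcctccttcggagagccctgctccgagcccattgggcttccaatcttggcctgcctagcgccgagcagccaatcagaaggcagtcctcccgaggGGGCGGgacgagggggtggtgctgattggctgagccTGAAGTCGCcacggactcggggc
The CAT window holds 1 match to the antioxidant motif, starting 23 bases before the start, and those of PRDX2, PRDX4 and PRDX5 hold none; 35.2% of all 35116 promoter windows of this length in the table hold it. ACGTG was found at 1 place in the PRDX2 window and at 3 in the PRDX4 window, where 2 of the 3 overlap on opposite strands in CACGTG, and in neither the CAT nor the PRDX5 window, against 18.5% of all windows with at least 1 match. GC boxes were present in all 4 windows, and in 42.6% of all windows. These matches describe letters only.

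The treatment was checked first on TFRC, the transferrin receptor, whose mRNA is stabilised when iron is low. TFRC had 227, 251 and 290 TPM with DMSO and 1814, 1976 and 2035 TPM with Chelator, so every Chelator library stood well above the DMSO libraries. All 15 erythroid and K562 marker genes were at 1 TPM or more in every library, with a summed level of 17641 to 19178 TPM in DMSO and 25018 to 26453 TPM in Chelator. By DESeq2, 6 of these 15 genes passed higher at an adjusted p under 0.05, TFRC among them, 4 passed lower and 5 did not pass; the glycophorin gene GYPB (0.95) and the embryonic globin gene HBE1 (0.76) had the next largest log2 fold changes of those higher, while KLF1, an erythroid transcription factor, fell by 0.72 on the log2 scale, and GATA1 was at -0.13 and did not pass. Of 18 markers of other cell types, 10 were under 1 TPM in at least 1 library, and MS4A1 (B cells) and ELANE (neutrophils) were at 0 TPM in all; the list summed to 692 to 788 TPM in DMSO and 1517 to 1718 TPM in Chelator, most of it from the keratin genes KRT8 and KRT18. Of the 16 of these markers that were tested, 9 passed higher, 6 of them with a log2 fold change above 1, 3 passed lower and 4 did not pass, and KRT8 (1.60), COL1A1 (1.60), a collagen gene, and CD3D (1.59), a T cell gene, were among the higher ones. The 3 lower ones were COL1A2 (-0.48), another collagen gene, EPCAM (-0.48), an epithelial gene like KRT8, and PECAM1 (-0.81), an endothelial gene. MPO, a neutrophil granule gene, had at most 0.01 TPM in each DMSO library and 0.97 to 1.74 TPM with Chelator. The part of these shifts in the results below was not tested.

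The 9 genes were all well expressed, with 4782 to 49953 estimated counts per gene and library. In TPM, which is a level per length, the order in DMSO was PRDX1 (659 ± 15.7, SD, n = 3), SOD1 (379 ± 19.0), PRDX6 (348 ± 17.5), PRDX2 (299 ± 13.0), PRDX4 (155 ± 11.1), SOD2 (149 ± 18.3), PRDX5 (130 ± 10.7), PRDX3 (123 ± 1.18) and CAT (87.7 ± 5.81). Ranges of neighbours overlapped for SOD1 and PRDX6, PRDX4 and SOD2, SOD2 and PRDX5, and PRDX5 and PRDX3, and were apart for the other 4 pairs of neighbours. After iron chelation the order was PRDX1 (758 ± 41.3), SOD1 (524 ± 38.4), PRDX2 (425 ± 12.1), PRDX6 (366 ± 1.30), PRDX5 (237 ± 13.8), SOD2 (111 ± 1.79), PRDX4 (108 ± 2.06), PRDX3 (101 ± 3.06) and CAT (71.4 ± 0.402), and only SOD2 and PRDX4 overlapped. PRDX2 passed PRDX6, and PRDX5 moved from place 7 to place 5.

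**Figure D1:**
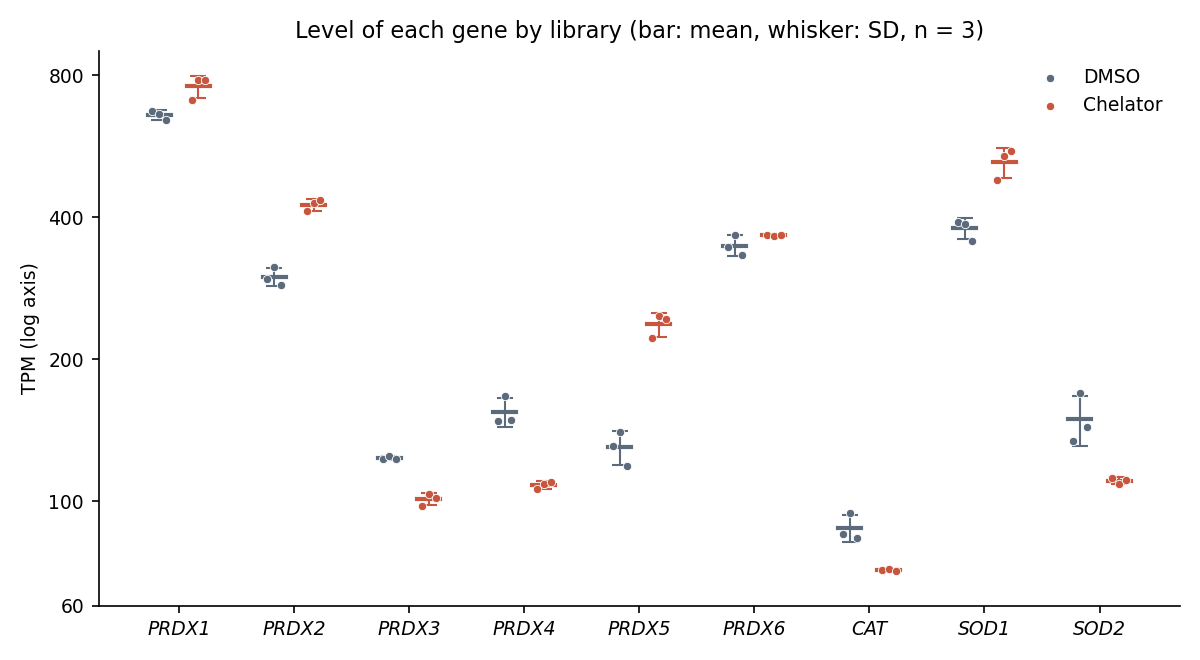
TPM (log axis) of the 9 genes in each of 3 DMSO and 3 Chelator libraries, with points for libraries, bars for means and whiskers for SD. PRDX2, PRDX5 and SOD1 sit higher in every Chelator library than in every DMSO library, PRDX3, PRDX4, CAT and SOD2 sit lower, and the PRDX6 groups overlap between 365 and 367 TPM.

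Differences between the groups were tested with DESeq2 (Wald test with Benjamini-Hochberg adjustment over all genes), and log2 fold changes are Chelator against DMSO on normalised counts. Of the 9 genes, 7 had an adjusted p under 0.05, 3 of them higher and 4 lower in Chelator, against 37.7% of all 24542 genes with an adjusted p. Well-counted genes passed more often, and among the 4032 genes with a mean normalised count of at least 5000, the class to which all 9 belong, 67.5% passed, with 22.9% higher and 44.6% lower, so the share of these genes that passed lay near the background. None of the 9 had an adjusted p under 0.05 together with an absolute log2 fold change above 1 in DESeq2, against 10.8% of all genes. In DESeq2, 8 had an unadjusted p under 0.05, and the share of all genes below that threshold was not counted. The edgeR quasi-likelihood test also gave 8 with an adjusted p under 0.05 (34.6% of all genes) and 0 past both thresholds. Its share among genes with a mean normalised count of at least 5000 was not counted, so this 8 has no like background. The median log2 fold change of the 9 was 0.04, against 0.02 over all genes and -0.13 over genes with a mean normalised count of at least 5000. Centring the data on the mean log2 change shifted the median of all genes by -0.20, and then 2 genes passed higher (PRDX2 and PRDX5) and 4 lower, with a median of -0.15 over the 9. With the GC and length trends removed, the median of the 9 was -0.06. Normalised counts of the groups did not overlap for 8 of the 9 genes, against 49.2% of all genes and 73.4% of the genes with a mean of at least 5000.

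Among the cytosolic peroxiredoxins, PRDX2 rose and PRDX1 and PRDX6 did not pass the test. PRDX2 (chr19:12796820-12801800, minus strand), the most abundant peroxiredoxin of mature red cells, had 296, 313 and 287 TPM with DMSO and 411, 428 and 435 TPM with Chelator. Every Chelator library lay above every DMSO library, and the log2 fold change was 0.48 ± 0.070 (SE; adjusted p = 9.11e-11, DESeq2), or 1.39-fold higher. This rise was not seen once trends of the fold change with GC content and length were removed from the counts, where the log2 fold change was 0.10 (adjusted p = 0.267, DESeq2).

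PRDX1 (chr1:45510914-45542732, minus strand), the most abundant of the 9 in every library, had 672, 663 and 642 TPM in DMSO and 710, 781 and 782 TPM in Chelator. All Chelator libraries were higher in TPM, but the fold change on normalised counts was small, at 0.17 ± 0.081 on the log2 scale (95% interval 0.01 to 0.32, adjusted p = 0.0921, DESeq2). It was 0.21 with TMM size factors (adjusted p = 0.0159, DESeq2) and -0.03 after centring (adjusted p = 0.865, DESeq2). With 1 library left out it ranged from 0.09 to 0.22. Exons of MMACHC, a gene of vitamin B12 handling on the opposite strand, cover 364 of the 945 bases of PRDX1-202, and the strandedness of the library kit is not given in the sources used here. MMACHC had a mean of 2306 estimated counts per library and a log2 fold change of -0.39.

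PRDX6 (chr1:173477330-173488815, plus strand), which also has phospholipase activity, had 346, 367 and 332 TPM in DMSO and 367, 365 and 366 TPM in Chelator. Here the groups overlapped, with DMSO replicate 2 among the Chelator libraries. The log2 fold change was 0.04 ± 0.069 (adjusted p = 0.699, DESeq2) with a 95% interval of -0.09 to 0.18, and it was -0.15 after centring and -0.06 with the GC and length trends removed.

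The organelle peroxiredoxins moved apart, PRDX5 upwards and PRDX3 and PRDX4 downwards. PRDX5 (chr11:64318121-64321811, plus strand) had 131, 140 and 119 TPM in DMSO and 221, 247 and 243 TPM in Chelator. No libraries overlapped, and the log2 fold change of 0.84 ± 0.075 (adjusted p = 2.6e-27, DESeq2), or 1.79-fold, was the largest of the 9 and above that of 82.5% of all genes with an adjusted p. It stayed past the adjusted p threshold with the GC and length trends removed, at 0.41, and after centring, at 0.64.

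PRDX3 (chr10:119167720-119178812, minus strand), the mitochondrial peroxiredoxin, had 123, 125 and 123 TPM in DMSO and 97.6, 104 and 102 TPM in Chelator. All Chelator libraries were below all DMSO libraries, with a log2 fold change of -0.32 ± 0.079 (adjusted p = 0.000193, DESeq2). PRDX4 (chrX:23664262-23686397, plus strand), which reduces peroxide in the endoplasmic reticulum, had 148, 167 and 148 TPM in DMSO and 106, 109 and 110 TPM in Chelator. The groups were again apart, and PRDX4 had the largest fall of the 9, with a log2 fold change of -0.54 ± 0.066 (adjusted p = 3.94e-15, DESeq2).

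Within each library, PRDX5 and PRDX3, both imported into mitochondria, were at nearly the same level in DMSO, where the log2 ratio of their TPM was 0.09, 0.17 and -0.05. In Chelator it was 1.18, 1.25 and 1.26, a difference of 1.16 between the means, and the groups did not overlap (exact permutation test, two-sided p = 0.1, the smallest that 3 against 3 libraries allow). The gap was smaller with the GC and length trends removed, where the log2 fold change was 0.41 for PRDX5 and -0.34 for PRDX3. The log2 ratio of PRDX2 to PRDX4 moved by 1.02, from 0.95 ± 0.050 to 1.97 ± 0.014 (SD, n = 3; exact permutation test, p = 0.1). Both ratios had to separate, because the genes of each pair were already apart in opposite directions. Their p-values therefore add nothing to the single-gene results.

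Both dismutases changed, in opposite directions. SOD1 (chr21:31659666-31668931, plus strand) had 392, 388 and 357 TPM in DMSO and 480, 539 and 551 TPM in Chelator. Libraries of the groups did not overlap, and the log2 fold change was 0.43 ± 0.084 (adjusted p = 1.61e-06, DESeq2). After centring it was 0.24 with an adjusted p of 0.0517 (DESeq2), just over the threshold, and with GC and length trends removed it was 0.30.

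SOD2 (chr6:159669069-159762529, minus strand) had 134, 170 and 143 TPM in DMSO and 112, 109 and 111 TPM in Chelator. Its groups were apart as well, with DMSO replicate 2 the highest, and the log2 fold change was -0.45 ± 0.068 (adjusted p = 2.85e-10, DESeq2). The log2 ratio of SOD1 to SOD2 TPM was 1.54, 1.19 and 1.32 with DMSO and 2.10, 2.31 and 2.31 with Chelator, a difference of 0.89 between the means (exact permutation test, p = 0.1). This ratio restates the single-gene results, since SOD1 was higher and SOD2 lower in every Chelator library.

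CAT (chr11:34438934-34472060, plus strand) had 85.1, 94.3 and 83.6 TPM in DMSO and 71.3, 71.9 and 71.1 TPM in Chelator. Each Chelator library was below each DMSO library, and the 3 Chelator libraries lay within 1 TPM of each other. The log2 fold change was -0.32 ± 0.066 (adjusted p = 6.02e-06, DESeq2), or 0.799 of the DMSO level, and it was lower than 0 under all 4 scalings tried.

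**Figure D2:**
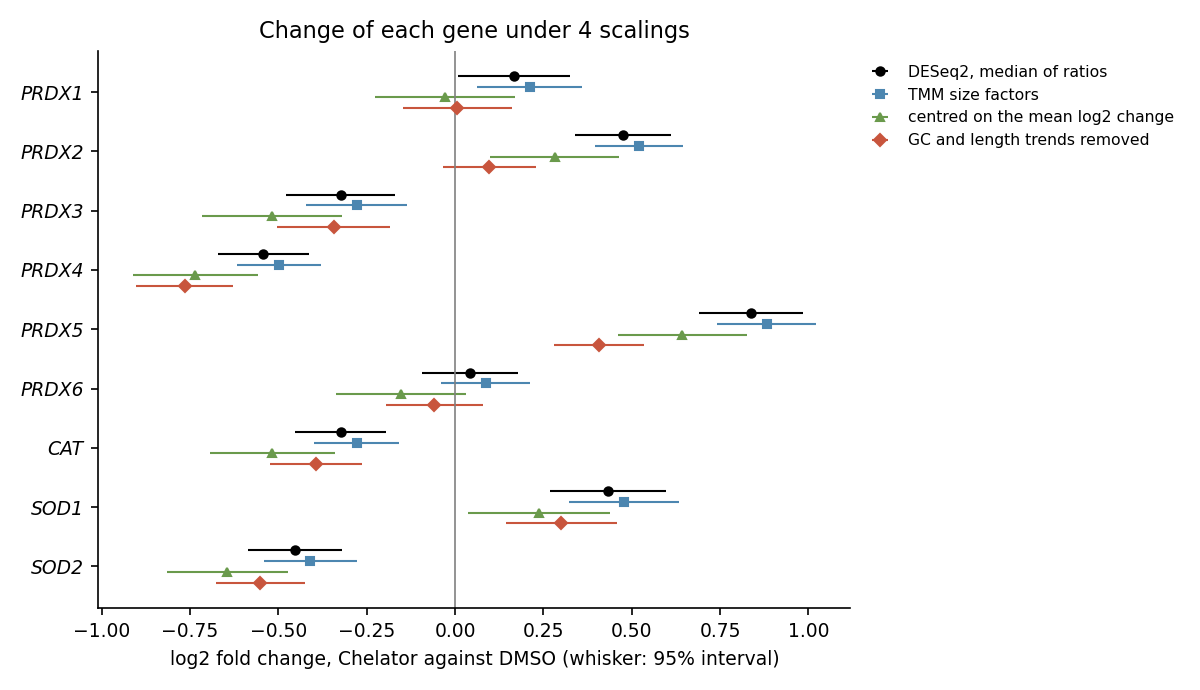
Log2 fold change (Chelator against DMSO) of each gene with its 95% interval under 4 scalings of the same counts. PRDX3, PRDX4, CAT and SOD2 lie below 0 and PRDX5 and SOD1 above 0 with intervals clear of 0 under all 4, whereas PRDX2 reaches 0 with the GC and length trends removed (0.10) and PRDX1 and PRDX6 lie on either side of 0.

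The 6 peroxiredoxins together summed to 1716, 1775 and 1652 TPM in DMSO and 1914, 2033 and 2038 TPM in Chelator. No Chelator sum fell within the DMSO range, and the ratio of the means was 1.16 (exact permutation test, p = 0.1). Of the summed TPM of all 9 genes, PRDX1 took 28.3 ± 0.869% in DMSO and 28.1 ± 0.431% in Chelator, and these overlapped. The shares of SOD1 (16.3 ± 0.494% and 19.4 ± 0.667%), PRDX5 (5.58 ± 0.236% and 8.78 ± 0.189%) and PRDX2 (12.8 ± 0.0839% and 15.7 ± 0.210%) were higher in Chelator without overlap. Those of PRDX4, SOD2, PRDX3, PRDX6 and CAT were lower without overlap, by 2.62 percentage points for PRDX4 and 2.29 for SOD2 (exact permutation test, p = 0.1 for each of these 8 shares). A share also depends on the other genes of the sum. The share of PRDX6 fell although its own mean level did not, at 348 TPM in DMSO and 366 TPM in Chelator. For SOD2 the fall in share was larger with normalised counts in place of TPM, at -3.82 points, and smaller with protein_coding transcripts alone, at -1.65.

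The libraries of the groups differed in fragment length. Fragment length was estimated as the median difference between the length and the salmon effective length of long transcripts without counts. This estimate was 252 to 264 bases in DMSO and 200 to 218 bases in Chelator, and the groups did not overlap. Over all genes with a mean normalised count of at least 500, the median log2 fold change went from 0.16 for transcripts up to 700 bases to -0.20 for those above 4000, and from -0.16 at a GC content up to 40% to 0.02 above 60%. PRDX5 had the shortest mean transcript length (804 bases) and the highest GC content (60.5%) of the 9, and PRDX2 the next highest GC content (58.1%). PRDX4, of like length to PRDX1 (955 and 954 bases), fell, and the median of the 844 genes between 700 and 1100 bases was 0.05. Without the offset for effective length, the log2 fold change of PRDX5 was 0.98. The part of fragment length in these changes was not tested.

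**Figure D3:**
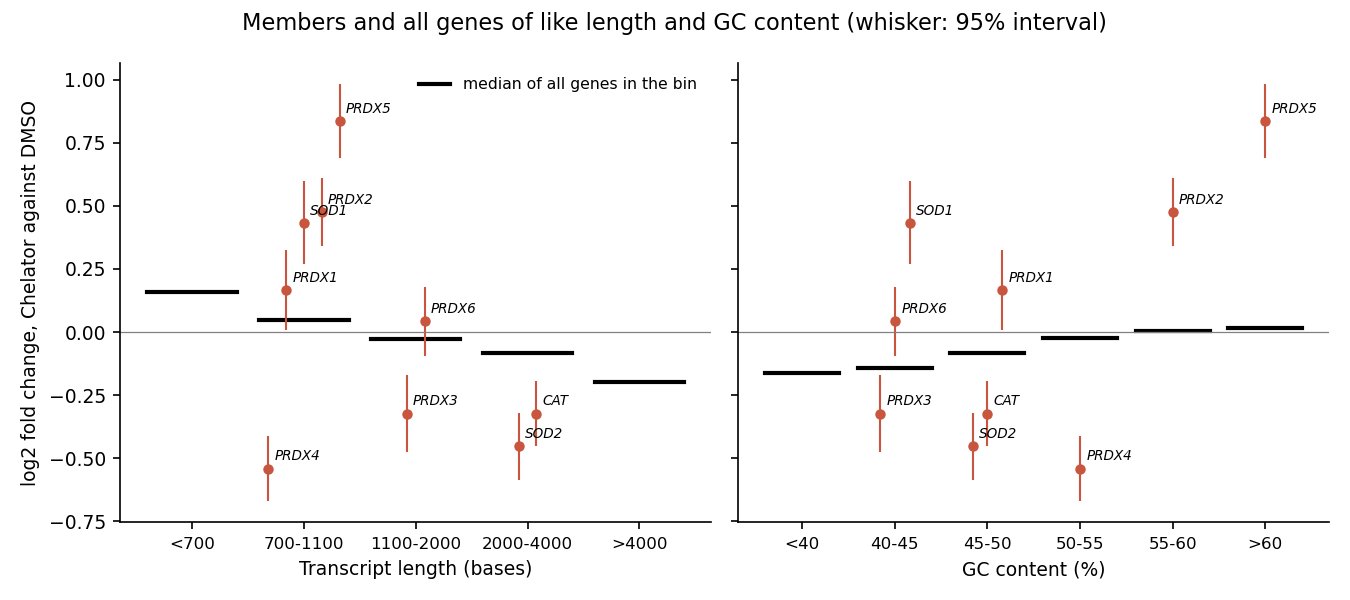
Log2 fold change of the 9 genes (points, 95% interval) by transcript length in bases and by GC content in percent, with the median of all genes in each bin (black lines; genes with a mean normalised count of at least 500). Bin medians run from 0.16 to -0.20 over length, and PRDX5 at 0.84 and PRDX4 at -0.54 lie farthest from them in the bin of 700 to 1100 bases.

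A gene sum can hide a shift between transcripts, so the use of transcripts within each gene was tested with edgeR's diffSpliceDGE over 11938 genes. A call needed an adjusted Simes p under 0.05 and a change of a transcript's share of the gene's TPM above 5 percentage points. PRDX6 was the 1 gene of the 9 that was called, against 9.26% of all genes tested. PRDX6-203, an annotated transcript with no defined coding sequence, made up 3.38, 2.87 and 2.03% of the gene's TPM in DMSO and 6.52, 8.37 and 8.83% in Chelator. The shares did not overlap and rose by 5.14 percentage points (adjusted Simes p of the gene = 0.000184, edgeR). In level, PRDX6-203 went from 9.66 ± 2.59 to 28.9 ± 4.41 TPM (SD, n = 3), while PRDX6-201, the full-length coding transcript, went from a share of 85.0 ± 0.608% to 78.3 ± 2.34% and had 296 ± 16.7 TPM in DMSO and 287 ± 9.14 TPM in Chelator, with overlap.

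The transcripts of PRDX6 differ at the borders of their first introns. PRDX6-203 lacks the first exon of PRDX6-201 and begins inside intron 1, at chr1:173481199-173481482, so that its first exon contains exon 2 of PRDX6-201 (chr1:173481326-173481482), which holds the catalytic cysteine codon shown above. Its last exon is also shorter (281 bases against 1081). PRDX6-202 runs from exon 2 into intron 2, and its share was 12.2 ± 0.865% in DMSO and 13.8 ± 1.19% in Chelator, which overlapped. Estimated counts of PRDX6-203 were 279.5 to 1733 per library, against 25568 to 33854 for PRDX6-201, and the bases of intron 1 that open it are the part that no other PRDX6 transcript holds.

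PRDX1 passed the adjusted Simes threshold without the change in share, as 10.8% of all genes tested did (adjusted p = 0.0297, edgeR). PRDX1-201, which differs from PRDX1-202 mainly by a longer first exon (330 bases against 56), fell from 2.95 ± 0.277% to 1.43 ± 0.0557% of the gene's TPM, with no overlap. Its level was 17.8, 20.0 and 20.4 TPM in DMSO and 10.4, 11.4 and 10.6 TPM in Chelator. Leaving out DMSO replicate 2 or 3 or Chelator replicate 2 or 3 ended this call, with adjusted p between 0.0672 and 0.121 (edgeR).

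The other 7 genes did not pass the transcript test, and 5 of them (PRDX2, PRDX3, PRDX4, CAT and SOD1) had a single transcript at 5% or more of the gene's TPM. PRDX5 had 3, and PRDX5-201, which holds all 6 exons, made up 82.5 ± 2.34% in DMSO and 84.5 ± 1.35% in Chelator. The share of PRDX5-202 was 12.0 ± 1.40% in DMSO and 8.55 ± 0.289% in Chelator, and its groups did not overlap, whereas those of the other two did. PRDX5-202 lacks exons 2 and 3 of PRDX5-201, and with exon 2 the cysteine codon of the window above, and PRDX5-203 lacks exon 3. The 3 transcripts of PRDX5 were all higher in every Chelator library than in every DMSO library, at 107 and 200 TPM for PRDX5-201, 15.5 and 20.3 TPM for PRDX5-202 and 7.17 and 16.6 TPM for PRDX5-203 (means of DMSO and Chelator).

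SOD2 also spread over 3 transcripts. SOD2-203, with 6 exons, held 36.9 ± 0.187% of the gene's TPM in DMSO and 36.8 ± 0.175% in Chelator. SOD2-215, annotated as a target of nonsense-mediated decay, retains the last intron in an exon of 3575 bases and held 28.7 ± 0.931% and 26.7 ± 1.32%. SOD2-201, which lacks the exon of 117 bases, held 25.4 ± 2.14% and 28.3 ± 2.31%. All 3 pairs of shares overlapped between the groups, and SOD2-203 and SOD2-215 were lower in every Chelator library in TPM.

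**Figure D4:**
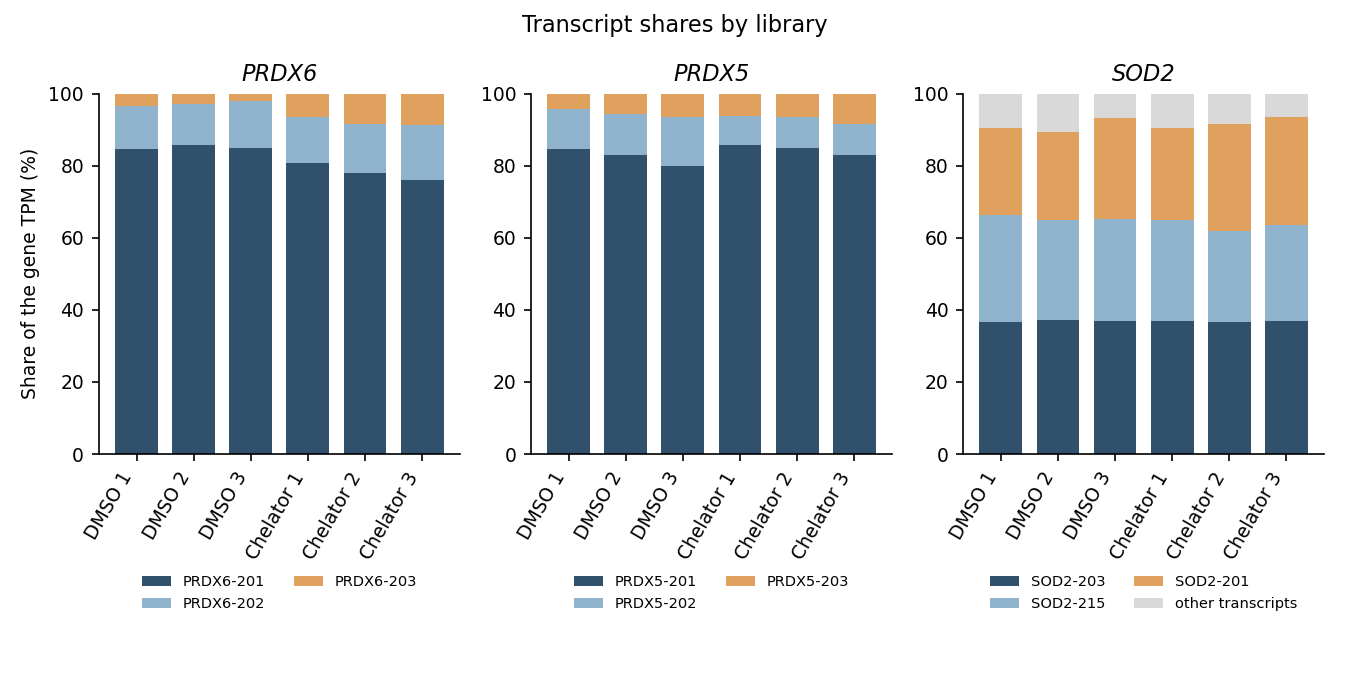
Share of each transcript in the TPM of its gene (percent, stacked bars) in the 6 libraries for PRDX6, PRDX5 and SOD2, the genes with more than 1 transcript at 5% or more. The PRDX6-203 segment is 2.03 to 3.38% in DMSO and 6.52 to 8.83% in Chelator, while SOD2-203 stays near 37% in all libraries.

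The enzymes around these 9 genes were described from 7 lists with 80 genes, of which 71 had an adjusted p. By DESeq2, 21 passed higher and 18 lower at an adjusted p under 0.05, against 19.5% higher and 18.3% lower of all genes and 22.9% and 44.6% of those with a mean normalised count of at least 5000. After centring, 13 passed higher and 29 lower. With the GC and length trends removed, 14 passed higher and 33 lower.

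The thioredoxin system, which reduces the peroxiredoxins after each turnover, had 2 genes higher, 1 lower and 4 that did not pass, of 7. TXN, the cytosolic thioredoxin, had 235, 226 and 206 TPM in DMSO and 267, 334 and 332 TPM in Chelator and a log2 fold change of 0.45 (adjusted p = 4.78e-05, DESeq2; 0.0649 after centring). TXNIP, which binds and inhibits thioredoxin, had 39.1, 42.9 and 36.7 TPM in DMSO and 84.9, 92.2 and 90.5 TPM in Chelator, with a log2 fold change of 1.14. Both were higher in every Chelator library. TXNL1 fell by 0.25 on the log2 scale, and the mitochondrial thioredoxin TXN2 (0.05), the reductases TXNRD1 (0.12) and TXNRD2 (0.08) and the sulfiredoxin SRXN1 (-0.16), which repairs overoxidised peroxiredoxins, did not pass. The list median was 0.08. After centring, 1 gene passed higher and 2 lower, SRXN1 (-0.35) among the latter, with a median of -0.11, and with the GC and length trends removed 2 passed higher and 4 lower, TXN2 (-0.28), TXNRD2 (-0.29) and SRXN1 (-0.32) among them, with a median of -0.28.

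Of 15 genes for glutathione peroxidases, glutathione synthesis and glutaredoxins, 4 passed higher, 3 lower and 7 did not pass. GPX4, the peroxidase of membrane lipid peroxides, had a log2 fold change of 0.40, which was 0.20 after centring (adjusted p = 0.0988, DESeq2) and -0.05 with the GC and length trends removed. GLRX3, an iron-sulfur glutaredoxin, fell by 0.39 and GCLM, the regulatory subunit of glutathione synthesis, fell by 0.38 on the log2 scale. GSTP1 (0.30) and GSS (0.22) passed higher, but were at -0.12 and -0.07 with those trends removed, and glutathione reductase, GSR, fell by 0.27. The list median was 0.04, and the balance turned with the scaling: 1 passed higher and 4 lower after centring (median -0.16), and 1 higher and 5 lower with the GC and length trends removed (median -0.19). GPX1 was at no more than 0.21 TPM in any library.

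NADPH, the source of electrons for thioredoxin and glutathione reductases, is supplied by 10 listed genes, of which 5 passed higher and 2 lower. IDH2, the mitochondrial NADP-dependent isocitrate dehydrogenase, had 34.3, 41.3 and 35.1 TPM in DMSO and 93.6, 88.2 and 96.3 TPM in Chelator and a log2 fold change of 1.31 (adjusted p = 2.82e-66, DESeq2). PGD, an oxidative enzyme of the pentose phosphate pathway, had a log2 fold change of 0.47. Both IDH2 and PGD were higher with an adjusted p under 0.05 under all 4 scalings. NNT, which makes NADPH in mitochondria, fell by 0.32 on the log2 scale. Over the list, the median was 0.27, and it was 0.08 after centring, with 4 higher and 2 lower, and 0.18 with the GC and length trends removed, with 5 higher and 3 lower.

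The remaining dismutase genes, SOD3, the secreted enzyme, and CCS, the copper chaperone of SOD1, both passed higher (0.93 and 0.30), though CCS did not pass after centring, and neither passed with the GC and length trends removed (0.38 and -0.13). SOD3 was low, at 0.94 to 1.5 TPM in DMSO and 2.05 to 2.51 TPM in Chelator. The list median was 0.61.

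Of 15 sources of superoxide and hydrogen peroxide, 4 passed higher and 1 lower, and 5 did not pass. ERO1B, an oxidase of the endoplasmic reticulum, had a log2 fold change of 0.49, and DUOX2 0.43 (adjusted p = 0.0437, DESeq2), which did not pass after centring (0.24) or with the GC and length trends removed (0.23). CYBB, the haem-binding subunit of the phagocyte oxidase, fell by 1.16 on the log2 scale from a low level, with 0.88 to 1.20 TPM in DMSO and 0.43 to 0.53 TPM in Chelator. The list median was 0.12, but 2 passed higher and 3 lower both after centring (median -0.08) and with the GC and length trends removed (median -0.18).

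Of 15 peroxisome assembly genes, needed for the import of catalase and part of PRDX5, none passed higher in DESeq2 or edgeR (unadjusted p under 0.05 for 0 higher in DESeq2 and for 1 in edgeR), and 5 passed lower, with 9 that did not pass. PEX26 fell by 0.47, PEX5, the import receptor, by 0.44 and PEX3 by 0.41 on the log2 scale. The list median was -0.17, and 11 passed lower after centring and 10 with the GC and length trends removed, scalings that also lowered the median of all genes.

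Among 16 transcriptional regulators of antioxidant genes, 4 passed higher, 6 lower and 5 did not pass. EPAS1, the hypoxia-inducible factor HIF-2α, had 2.13, 2.49 and 1.83 TPM in DMSO and 19.5, 15.2 and 20.5 TPM in Chelator, with a log2 fold change of 3.08. MAFF, a small partner of NRF2, had a log2 fold change of 1.71 and NFKB1 fell by 0.67. NFE2L2, the gene of NRF2, was higher (0.45) and KEAP1, its inhibitor, lower (-0.28), and both passed under all 4 scalings. The list median was 0.00, and 7 passed lower after centring and 8 with the GC and length trends removed, with 4 higher in each.

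**Figure D5:**
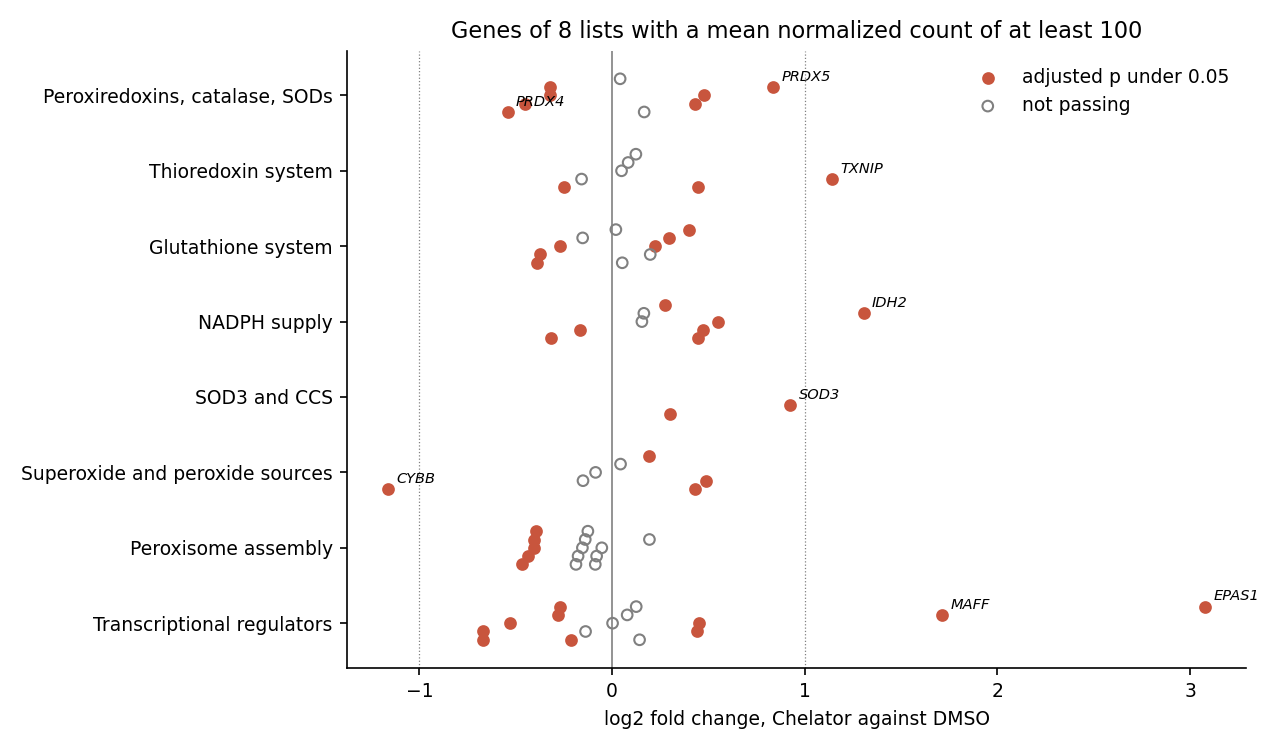
Log2 fold change (Chelator against DMSO) of the genes with a mean normalised count of at least 100 in 8 lists, filled where the DESeq2 adjusted p was under 0.05; dotted lines mark -1 and 1. The 9 antioxidant enzymes lie between -0.54 and 0.84, inside the dotted lines, which CYBB, TXNIP, IDH2, MAFF and EPAS1 cross.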

How the data were processed

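Paired-end reads of 150 cycles were, per the labels, made from polyA-selected RNA, and the authors quantified transcripts with salmon 1.10.2 (build hg38 in the submitters' processing notes). The deposited files give estimated counts and TPM per transcript, with lengths; the annotation used for them is not given in the sources used here. Transcript identifiers were matched to GENCODE v44 (251142 of 252045 with the same version), and values were summed per gene. Unmatched rows held 0.139 to 0.150% of the counts and were left out. Estimated counts were rounded and tested with DESeq2 1.42.0 (effective-length offsets, median-of-ratios size factors, all 6 libraries, total count above 10), with edgeR 4.0.16 and limma 3.58.1 as alternatives; calls needed an adjusted p under 0.05 with a log2 fold change beyond ±1. Transcript use was tested with edgeR (at least 10 counts in at least 3 libraries). Sums, shares and ratios used exact two-sided permutation tests, and the pairs for the ratios were not set beforehand. Scripts were tested on simulated data. The members and lists were chosen with earlier results of these data known. Named in the text were all 9 genes, up to 3 genes per list with the largest absolute log2 fold change among those with an adjusted p under 0.05 and a mean normalised count of at least 100, transcripts at 5% or more of a gene, and neighbours within 50 kb. TXN2, TXNRD1, TXNRD2, SRXN1, GSTP1, GSS, GSR, GPX1, NNT, NFE2L2, KEAP1, PRDX1-201, MS4A1, ELANE, MPO, COL1A2, EPCAM, PECAM1, KLF1, GATA1 and KRT18 were added after their values were seen. Some listed genes are counted but not reported here by name.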

Additional observations from a re-analysis of the deposited data

How the results depend on the processing

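Across 19 alternatives and 9 genes, 150 of 171 fits kept the direction and the side of the adjusted p threshold. The log2 fold change turned sign for PRDX1 after centring (-0.029) and for PRDX6 after centring (-0.15), without DMSO replicate 2 (-0.0012; -0.0012 to 0.079 over the libraries left out), with protein_coding transcripts alone (-0.021) and with the GC and length trends removed (-0.059). PRDX1 passed (adjusted p 0.00403 to 0.0442) under 7 alternatives: edgeR, TMM, no length offset, protein_coding transcripts alone, both limma fits and without DMSO replicate 1. Tested against a log2 fold change of 1, 0 genes of the 9 passed, higher or lower, and 3 pathway genes passed, 3 higher and 0 lower, 3 of them with the fold threshold. Centring gave 13 pathway genes higher and 29 lower, and removal of GC and length trends, chosen after seeing the data for these lists, gave 14 and 33. Leaving out 1 library gave 7 to 8 of the 9 genes, 3 to 4 higher and 4 lower, and 31 to 40 pathway genes. The number of the 9 genes past the Simes threshold was 1 to 2 without 1 library. The labels do not say whether libraries with the same replicate number were paired. Deviations of same-numbered libraries correlated weakly (-0.018, 0.084 and 0.034), which cannot decide it with 3 libraries per group. The replicate block is given here alone: 7 of the 9 genes and 35 pathway genes passed, and 1 gene passed the transcript test. With normalised counts in place of TPM, the log2 ratio of the peroxiredoxin sums was 0.15 (0.22 in TPM), and the change in the share of PRDX1 turned to 1.21 percentage points; it was -0.75 to 0.044 points with 1 library left out.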

Other observations

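JUNB, 3505 bases from PRDX2, had a log2 fold change of 1.21 ± 0.075 (SE), against 0.48 ± 0.070 for PRDX2, with 4158, 3747 and 3904 normalised counts in DMSO and 8810, 9027 and 9540 in Chelator, and it was at 0.75 with the GC and length trends removed. TRMT112, the nearest gene before PRDX5, was at 0.25 (adjusted p = 0.0085, DESeq2) but at -0.06 with the GC and length trends removed, and SFXN4, 2006 bases from PRDX3, was at -0.26 (adjusted p = 0.0116, DESeq2) and at -0.47 with the trends removed. Near SOD2, TCP1, 15969 bases away, fell by 0.73 and WTAP, within its long annotated span on the opposite strand, fell by 0.37 on the log2 scale, while ACAT2, on the opposite strand and overlapping only the end of that span, an enzyme of cholesterol synthesis, had a log2 fold change of 0.85 with 11786, 10834 and 11851 normalised counts in DMSO and 22413, 20085 and 19781 in Chelator. SCAF4, 2069 bases from SOD1, was at -0.12 and did not pass, but with the trends removed it was at -0.24 and passed (adjusted p = 0.00262, DESeq2). AKR1A1 and CCDC163 near PRDX1, at 0.05 and 0.36, and HOOK2, overlapping PRDX2, at 0.11, did not pass. Neither did GRK5 near PRDX3 (0.26), ACOT9 near PRDX4 (0.001) or CCDC88B near PRDX5 (0.18). With the trends removed, AKR1A1 (-0.29) and HOOK2 (-0.24) passed lower. THSD8, 231 bases from PRDX2, passed at 1.40 but not with the trends removed (0.84).

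The protein-coding genes whose centred log2 normalised counts lay closest to those of PRDX5 over the 6 libraries, among 9654 with a mean normalised count of at least 500, were ERP29 (root mean square distance 0.033, log2 fold change 0.87), a chaperone of the endoplasmic reticulum, GTF2IRD2 (0.037, 0.86) and NSDHL (0.039, 0.81), an enzyme of cholesterol synthesis. For PRDX4 they were ZBED4 (0.017, -0.55), B3GALT6 (0.020, -0.52) and NAF1 (0.021, -0.55). The likeness is a description over 6 libraries in 2 groups.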
